A study of Drosophila melanogaster with 2 samples.

Results

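The 8 Hox genes of Drosophila melanogaster, lab, pb, Dfd, Scr and Antp of the Antennapedia complex and Ubx, abd-A and Abd-B of the bithorax complex, were examined for binding of the nuclear receptor Hr96. They were taken by name from the Ensembl annotation and are 8 of the 13945 protein-coding genes on the 6 main chromosome arms. Every peak summit from 20 kb upstream to 20 kb downstream of each gene was mapped. Because the windows of lab and pb and those of Dfd and Scr overlap, they form 6 segments of 627.424 kb in all, or 1.96% of arm 3R, where both complexes lie.

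Chromatin came from whole adult females of 1 transgenic line that stably expresses Hr96 with GFP fused to its C terminus, and was precipitated with an antibody against GFP (the antibody label itself reads Hr96). The age of the flies is unknown. There were 2 biological replicates, numbered 1 and 3, in a single group, both with the fusion. No list from flies lacking the fusion was analysed here, and a whole-organism sample cannot tell apart few strongly bound cells and many weakly bound ones. Each peak has a signal, the strength the peak caller gave it against a control, on a scale that differs between lists, so ranks are given beside it (rank 1 is the strongest). The replicate lists and the list called on both replicates together (the pooled list) hold 30000 regions each and are labelled as peaks and background. The IDR list, labelled as thresholded for reproducibility between replicates, holds 3607 peaks, which are the 3607 strongest of the pooled list. Of these, 2888 had a summit within 100 bp in both replicate lists. Another 389 had one in replicate 1 only, 289 in replicate 3 only and 41 in neither. A place in the IDR list thus does not mean a counterpart in each replicate.

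Hox genes encode homeodomain transcription factors that give body segments their identity along the head to tail axis, and their order on the chromosome follows the order of the segments they pattern. Each is controlled over long distances by enhancers, by Polycomb response elements that hold it silent, and by boundary elements that separate neighbouring regulatory domains. The insulator protein CTCF is known to bind several boundaries of the bithorax complex. Hr96 is best known for its part in the response to foreign chemicals and in lipid metabolism.

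In the IDR list 8 summits lay in the Hox windows, and only 1 of them was inside a Hox gene, an intron of Abd-B. No IDR summit lay within 500 bp of a transcription start site (TSS) of any Hox gene, whereas 18.1% of all protein-coding genes had one. Of the 8 summits, 5 were at promoters of neighbouring genes and the other 3 lay in introns or between genes of the bithorax complex. Those 3 had a far higher rank in replicate 1 than in replicate 3 or no counterpart in replicate 3. Among the 5 at promoters, the summit near bcd also had no counterpart in replicate 3.

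The sequences under the summits away from promoters are shown first, together with 3 bithorax sites that carry a CTCF word and the summit near bcd. Capitals mark 8 or 9 bases that match AGNNGGCG, the loose form of the fly CTCF core, extended by the final C where it is there. The stricter core used for counting has 4 spellings, AGGTGGCGC, AGATGGCGC, AGGGGGCGC and AGAGGGCGC, read on both strands. Each window is 151 bases of dm6 centred on the pooled summit and given on the plus strand, from the RefSeq copy of the assembly. The intron of the long noncoding RNA gene iab8, downstream of Abd-B, is chr3R:16919200-16919350. The intron of MSAmiP and iab8, between the windows of abd-A and Abd-B, is chr3R:16869324-16869474. The Abd-B intron with the IDR summit is chr3R:16948746-16948896, and a second Abd-B intron site with a CTCF word is chr3R:16934776-16934926. The intron of the long noncoding RNA gene bxd, upstream of Ubx, is chr3R:16748654-16748804. The intergenic site downstream of abd-A is chr3R:16798806-16798956, and the site near bcd is chr3R:6759610-6759760.
iab8 intron: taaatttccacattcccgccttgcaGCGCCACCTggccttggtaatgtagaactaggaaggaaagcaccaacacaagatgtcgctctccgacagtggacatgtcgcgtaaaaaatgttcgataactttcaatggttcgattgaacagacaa
MSAmiP intron: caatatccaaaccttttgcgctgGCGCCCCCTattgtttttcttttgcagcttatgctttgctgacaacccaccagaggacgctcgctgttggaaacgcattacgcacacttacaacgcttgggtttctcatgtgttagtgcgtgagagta
Abd-B intron with IDR summit: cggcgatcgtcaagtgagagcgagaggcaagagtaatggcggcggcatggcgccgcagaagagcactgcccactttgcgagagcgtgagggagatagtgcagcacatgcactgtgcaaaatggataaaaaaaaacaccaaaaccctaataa
Abd-B intron with CTCF word: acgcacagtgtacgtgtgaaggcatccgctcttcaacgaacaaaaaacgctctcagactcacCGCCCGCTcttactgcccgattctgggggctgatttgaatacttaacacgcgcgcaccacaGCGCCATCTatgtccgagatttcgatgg
bxd intron: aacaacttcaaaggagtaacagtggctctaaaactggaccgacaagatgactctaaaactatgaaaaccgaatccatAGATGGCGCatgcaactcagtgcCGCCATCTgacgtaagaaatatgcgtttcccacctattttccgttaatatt
abd-A downstream: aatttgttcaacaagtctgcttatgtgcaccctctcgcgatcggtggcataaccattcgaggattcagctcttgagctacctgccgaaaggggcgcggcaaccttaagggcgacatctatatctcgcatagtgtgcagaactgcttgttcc
bcd promoter: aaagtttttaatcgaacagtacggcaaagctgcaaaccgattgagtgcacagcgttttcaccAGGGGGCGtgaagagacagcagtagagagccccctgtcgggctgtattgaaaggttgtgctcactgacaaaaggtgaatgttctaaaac

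The iab8 window carries AGGTGGCGC and the MSAmiP window AGGGGGCGC, both on the minus strand and thus printed as their reverse complements, GCGCCACCT and GCGCCCCCT. The bxd window holds AGATGGCGC on the plus strand and the 8 bases AGATGGCG on the minus strand, so that the words face each other. Neither the Abd-B intron under the IDR summit nor the site downstream of abd-A holds a capitalised word within these 151 bases.

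The windows were poor in strong summits and rich in weak ones. There were 1.28 IDR summits per 100 kb in the Hox windows, against 2.83 over arm 3R, a ratio of 0.451, and inside the Hox genes themselves the ratio to the arm was 0.105. In the pooled list the Hox windows held 225 summits, or 35.9 per 100 kb against 26.1 over the arm, a ratio of 1.37. The ratio was 1.52 in replicate 1, with 254 summits in the Hox windows, and 1.29 in replicate 3, with 202. Over single genes, the median density in the pooled list was 32.7 summits per 100 kb for the Hox genes, against 23.4 for all protein-coding genes. In the IDR list these medians were 1.10 and 2.47. The Abd-B window was the exception there, with 4.70 IDR summits per 100 kb, above 59.7% of all protein-coding genes.

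Hox windows held 0.426% of the arm's pooled summits among ranks 1 to 1000, 1.04% among ranks 1001 to 3607, and 2.73% among ranks 3608 to 10000. The share was 2.95% among ranks 10001 to 20000 and 2.96% among ranks 20001 to 30000. It passed the 1.96% that the windows take of the arm's length from rank 3608 on. In both replicate lists the share was likewise under that length share down to rank 3607, and it was above it from rank 10001 on.

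**Figure D1:**
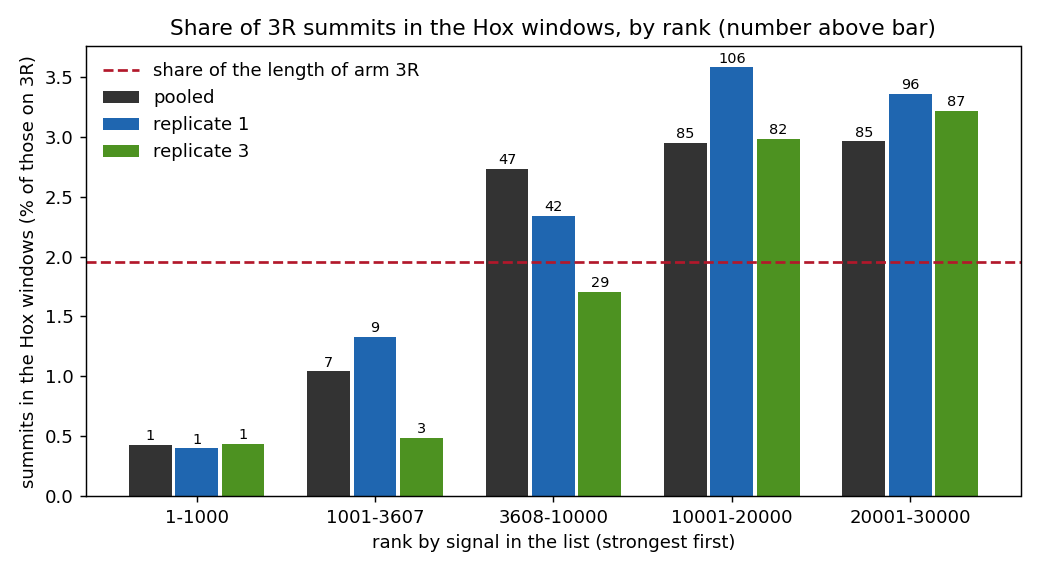
Summits in the Hox windows as a percent of those on arm 3R (vertical axis), in 5 bands of rank by signal (horizontal axis, strongest first), for the pooled, replicate 1 and replicate 3 lists, with the number of summits above each bar and the windows' share of the arm's length, 1.96%, as a dashed line. All 3 lists lie under the line for ranks up to 3607 and above it beyond rank 10000.

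The q-values are held in the lists as −log10. In the pooled and replicate lists most regions, in the Hox windows and over the whole list, were not below 0.05. The pooled and the IDR list each held 2791 regions below 0.05, so these counts are not separate from the ranks by signal. In the Hox windows 6 of the 225 pooled summits (2.67%) had a q-value below 0.05, against 9.3% of the whole pooled list. Replicate 1 had 6 of 254 in the windows, against 8.57% of the list, and replicate 3 had 3 of 202, against 10.3%. Of the 8 IDR summits 6 were below 0.05, against 77.4% of all IDR peaks, and the other two were those near Taf1 and modSP. The median pooled signal was 27.0 in the Hox windows and 25.7 inside Hox genes, against 27.9 over the list.

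Genes differ in length, and the Hox genes are long, with a median of 30563 bp against 2166 bp for all protein-coding genes. An IDR summit lay inside 1 of the 8 Hox genes, against 10.8% of all genes and 34.9% of the 1865 genes at least as long as Dfd, the shortest Hox gene at 10593 bp. With 20 kb on each side, 5 of 8 Hox genes had an IDR summit, against 71.3% of all genes. Of the same 1865 long genes, 29.3% had an IDR summit at a promoter. At 3 counts of 8 genes, the count of 0 allows a share of up to 37.5%, which is above both the 18.1% of all genes and the 29.3% of long genes.

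In the Antennapedia complex, from 20 kb outside lab to 20 kb outside Antp, there were 2 IDR summits in 377.802 kb, and neither was inside a Hox gene or between Dfd and Antp. The corresponding span of the bithorax complex, 355.614 kb, held 7. The pooled list had the opposite order, with 149 summits in the Antennapedia span and 115 in the bithorax span.

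**Figure D2:**
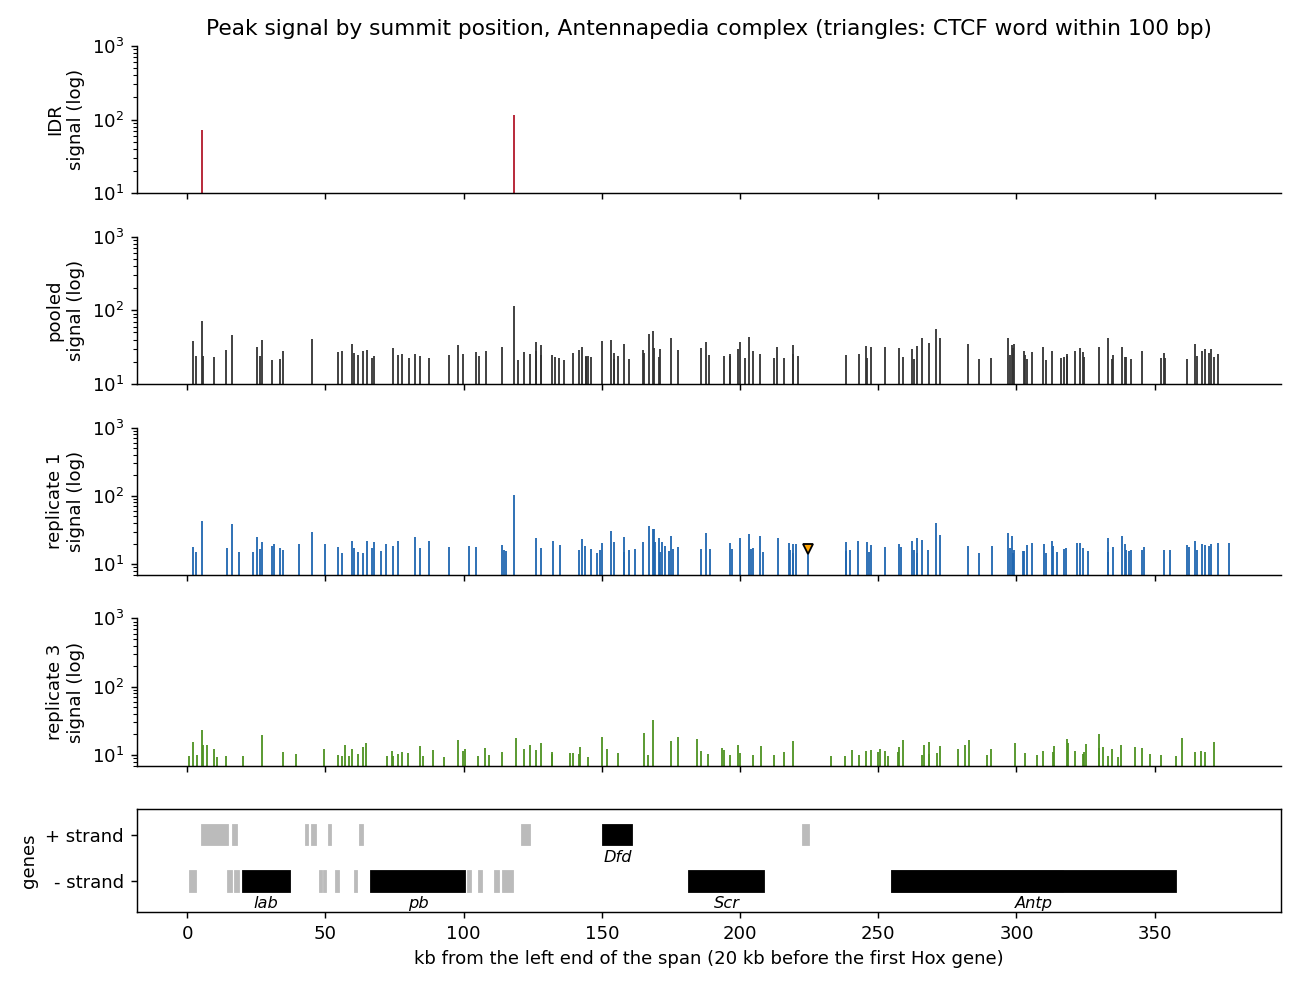
Signal of each summit (vertical axes, log scale) against its distance in kb from the left end of the Antennapedia span (horizontal axis) in the IDR, pooled, replicate 1 and replicate 3 lists, with Hox genes in black and other protein-coding genes in grey below and triangles at summits with a CTCF word within 100 bp. The IDR row holds 2 summits, near Taf1 and near bcd, and the lower rows hold many weak ones.

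lab, which acts in the head and the midgut, lies at chr3R:6661427-6678590 on the minus strand. Its window had 1 IDR summit, 16 pooled, 19 replicate 1 and 17 replicate 3 summits. The IDR summit was 14551 bp downstream of lab and 13 bp from a TSS of Taf1, which encodes the largest subunit of the general transcription factor TFIID. Its signal was 71.6 at rank 2866 in the IDR list, 43.6 at rank 2994 in replicate 1 and 23.5 at rank 4800 in replicate 3. The strongest pooled summit inside lab, in an intron, had a signal of 39.2 at rank 6615.

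pb, which specifies mouthparts, lies at chr3R:6707800-6742063 on the minus strand. Its window had 1 IDR summit, 25 pooled, 24 replicate 1 and 27 replicate 3 summits. The IDR summit stood 219 bp from the TSS of bcd, the gene of the anterior morphogen Bicoid, and 17622 bp upstream of pb. It was the strongest in the Antennapedia span, with a signal of 116.1 at rank 1541, and replicate 1 had it at 104.1 and rank 1032. Replicate 3 had no summit within 100 bp; its strongest in the window lay 575 bp away, with 17.6 at rank 7813, so this site rests on replicate 1. The strongest pooled summit inside pb had a signal of 33.9 at rank 9001, the lowest such value of the 8 genes.

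Dfd, which patterns the maxillary and mandibular segments, lies at chr3R:6791836-6802428 on the plus strand, and Scr, which acts in the labial segment and the prothorax, at chr3R:6823120-6849981 on the minus strand. Neither window held an IDR summit. Both had 27 pooled summits, while replicate 1 had 28 and 32 and replicate 3 had 15 and 18 in the windows of Dfd and Scr. Per 100 kb the Dfd window was the densest of the 8, with 53.4 pooled summits, above 99.1% of all protein-coding genes, and 55.3 in replicate 1. In replicate 3 it had 29.6, above 67.1% of genes, so the density differs between the replicates.

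The strongest pooled summit of both windows was the same one, between the 2 genes at the promoter of the microRNA gene mir-10. It had a signal of 52.8 at rank 4226, just under the IDR list, whose lowest signal is 59.9. Its replicate 1 counterpart had rank 4351 and its replicate 3 counterpart rank 2884. Each lay within 100 bp of the pooled summit, but they did not lie within 100 bp of each other. In replicate 1 the strongest summit of both windows was another one, intergenic and downstream of Dfd, with 35.9 at rank 3862. Within the genes, the strongest pooled summit had a signal of 39.2 in Dfd and 42.9 in Scr.

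Antp, which acts in the thorax, lies at chr3R:6896253-6999228 on the minus strand and is the longest of the 8. Its window had no IDR summit, though it held 59 pooled, 63 replicate 1 and 52 replicate 3 summits, 44 of the pooled ones inside the gene. The strongest pooled summit of the window, in an intron, had a signal of 55.3 at rank 4022 and is the strongest pooled summit of the Hox windows that is not in the IDR list. Its signal was 40.4 at rank 3274 in replicate 1 and 10.8 at rank 22679 in replicate 3. Replicate 3 had its strongest Antp summit, at 20.6 and rank 5895, elsewhere, 58760 bp away.

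**Figure D3:**
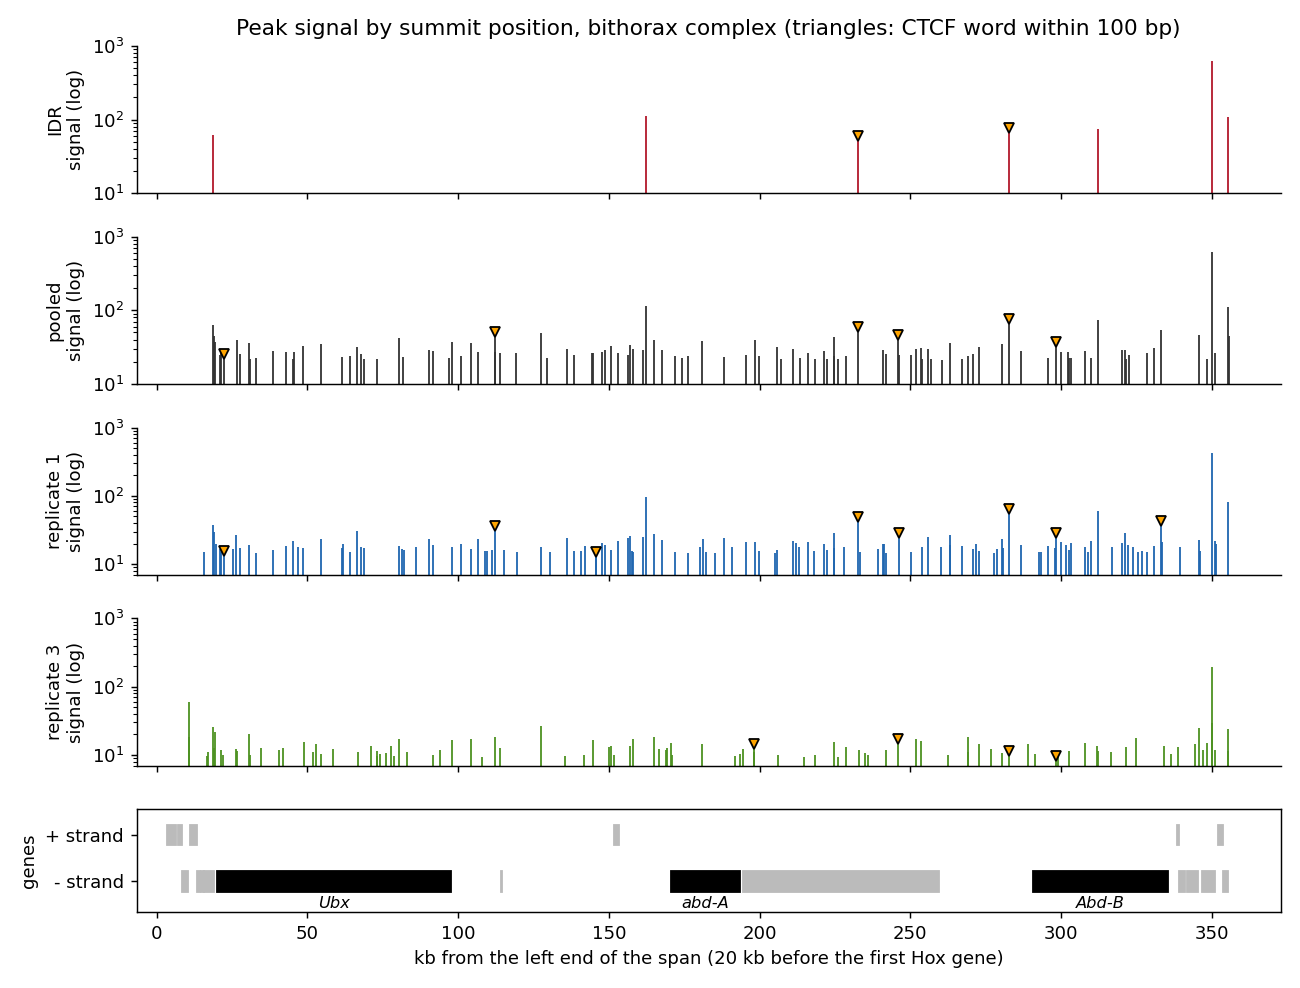
Signal of each summit (vertical axes, log scale) against its distance in kb from the left end of the bithorax span (horizontal axis), in the same 4 lists and with the same symbols as for the Antennapedia span. The IDR row holds 7 summits, 2 of them with a CTCF word, and the peak of 617.0 near Abd-B stands out in all 4 lists.

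Ubx, which specifies the posterior thorax, lies at chr3R:16656623-16734426 on the minus strand. Its window had 1 IDR summit, 35 pooled, 39 replicate 1 and 38 replicate 3 summits. The IDR summit was 1212 bp downstream of the gene, 251 bp from a TSS of modSP, a serine protease of the Toll pathway, with a signal of 62.4 at rank 3420. Both replicates held it, with 37.6 at rank 3617 in replicate 1 and 25.3 at rank 4331 in replicate 3. The strongest replicate 3 summit of the window was a different one, 59.5 at rank 1052, at the shared promoter of CCT3, a chaperonin subunit, and CG10324, with no counterpart within 100 bp in the other 3 lists, the nearest being 5147 bp away in replicate 1.

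Upstream of Ubx, in the bxd intron shown above, the pooled list had a summit with a signal of 50.7 at rank 4443, and its CTCF word was centred 6 bp away. Replicate 1 had it at 36.5 and rank 3771, and the nearest replicate 3 summit, 112 bp away and thus just beyond the 100 bp used for matching, had 18.4 at rank 7140. The strongest pooled summit inside Ubx had a signal of 42.2 at rank 5817.

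abd-A, which acts in the anterior abdomen, lies at chr3R:16807214-16830049 on the minus strand. Its window had 1 IDR summit, 20 pooled, 26 replicate 1 and 17 replicate 3 summits. The IDR summit was the only intergenic one of the 8, at 8333 bp downstream of abd-A and 1719 bp from the nearest TSS, that of the noncoding gene CR45750. Its signal was 113.3 at rank 1583, and 95.6 at rank 1148 in replicate 1. Replicate 3 had no summit nearer than 2806 bp, where its strongest in the window had 18.6 at rank 7011, so the site rests on replicate 1. Inside abd-A the strongest pooled summit had a signal of 38.5 at rank 6837.

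Abd-B, which specifies the posterior abdomen and genitalia, lies at chr3R:16927212-16972236 on the minus strand and had 4 of the 8 IDR summits. It also had 27 pooled, 40 replicate 1 and 27 replicate 3 summits. The strongest summit of all Hox windows was 14419 bp upstream of it, 195 bp from a TSS of CG18622, with a signal of 617.0 at rank 71 in the IDR list. It had 421.6 at rank 66 in replicate 1 and 193.8 at rank 80 in replicate 3, so its rank was nearly the same in both. Another was 19749 bp upstream, at the promoters of EMC2B, a subunit of the endoplasmic reticulum membrane complex, and the noncoding gene CR45221. Its signal was 109.5 at rank 1656 in the IDR list, 81.5 at rank 1414 in replicate 1 and 23.9 at rank 4703 in replicate 3.

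The other two Abd-B summits were not at promoters. In the iab8 intron, 7937 bp downstream of Abd-B, the signal was 75.7 at rank 2667 in the IDR list, 64.4 at rank 1873 in replicate 1 and 11.5 at rank 19620 in replicate 3. In the Abd-B intron, 4548 bp from the nearest Abd-B TSS, it was 73.6 at rank 2760, with 59.8 at rank 2045 in replicate 1 and 11.3 at rank 20433 in replicate 3. Both were thus among the stronger summits of replicate 1 and among the weaker regions of replicate 3.

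Between the windows of abd-A and Abd-B lay 1 more IDR summit, in the intron of MSAmiP, which encodes a micropeptide, and of iab8. It was 39350 bp from abd-A and 57813 bp from Abd-B and is not counted among the 8. Its signal was 60.1 at rank 3588 in the IDR list, 48.3 at rank 2611 in replicate 1 and 11.6 at rank 19112 in replicate 3.

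The replicates were compared by the log2 ratio of their signals, replicate 1 over replicate 3, at IDR summits matched within 100 bp in both lists. The ratio was 2.48 at the iab8 intron, above 97.7% of matched IDR summits, and 2.41 at the Abd-B intron, above 97.2%. At the MSAmiP intron it was 2.05, above 92.7%. The promoter summits matched in both lists had lower ratios, with 0.57 near modSP, 0.89 near Taf1, 1.12 near CG18622 and 1.77 near EMC2B. The promoter summit near bcd and the intergenic one downstream of abd-A had no replicate 3 counterpart and thus no ratio. A split between promoter and other summits therefore cannot be read from these ratios. All of these stand against a median of 0.90 (SD 0.84) over the 2888 IDR summits matched in both lists, which differ in scale.

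**Figure D4:**
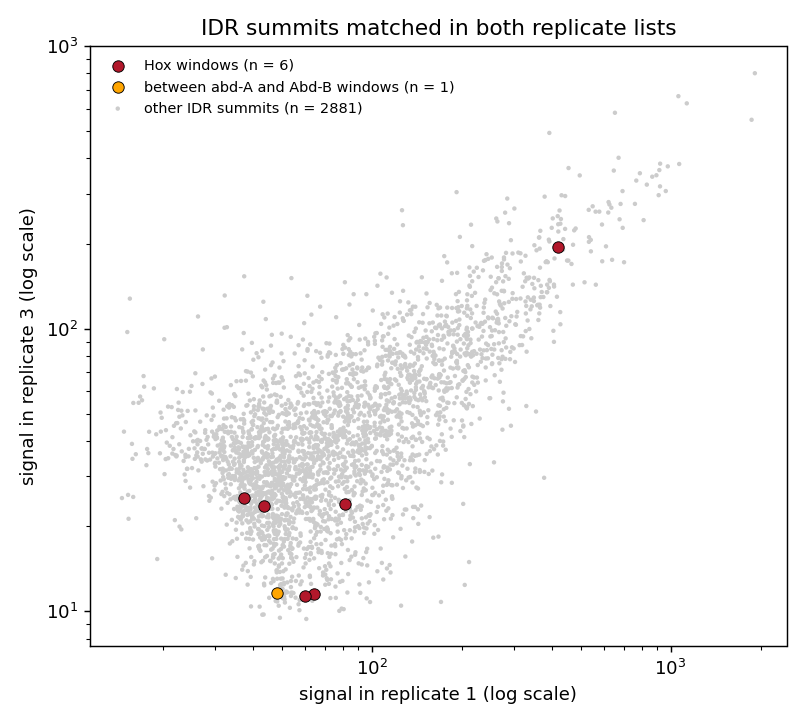
Signal in replicate 1 (horizontal axis) against replicate 3 (vertical axis), both on log scales, for IDR summits with a counterpart within 100 bp in both lists; red points are the 6 in the Hox windows, the orange point is the one between the windows of abd-A and Abd-B, and grey points are the other 2881. The iab8, Abd-B and MSAmiP introns lie along the lower edge, at 11.3 to 11.6 in replicate 3.

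Of the 8 IDR summits in the Hox windows, 6 were matched in both replicate lists, against 80.1% of all IDR peaks. All 8 were matched by one of the 10000 strongest summits of replicate 1, against 89.6%, but 4 by one of the 10000 strongest of replicate 3, against 84.0%. Of the 225 pooled summits 49 were matched in both replicates, or 21.8% against 25.3% of the pooled list. Among the 3607 strongest summits of each replicate, 10 of replicate 1 lay in the windows, 3 of them inside Hox genes, and 4 of replicate 3, none inside a Hox gene. Whether the 2 libraries differ in depth or in enrichment at these sites was not tested.

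The strongest summit inside each gene ranks the genes as Abd-B (73.6 pooled signal), Antp (55.3), Scr (42.9), Ubx (42.2), lab and Dfd (39.2 each), abd-A (38.5) and pb (33.9). Of the 7 neighbouring pairs in this order, 2 kept it in both replicates, Antp above Scr and Ubx above lab, and the other 5 changed order in at least 1 replicate. In replicate 1 Abd-B was strongest, at 59.8, and in replicate 3 Antp was, at 20.6, with Abd-B at 17.5. In none of the 8 genes were the strongest summits of the replicates within 100 bp, against 34.5% of 3967 genes with summits in both lists and 27.3% of the 1661 among them at least as long as Dfd. They were 1211 bp apart in Dfd and 58760 bp apart in Antp, the ends of the range. The order of the genes thus did not hold across the replicates.

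At their own promoters, Hox genes had only weak summits. In the pooled list 5 of 8 genes, Dfd, Scr, Antp, Ubx and Abd-B, had one no more than 500 bp from a TSS, as did 39.5% of all genes. In replicate 1 the same 5 of 8 genes had one, against 39.0%, and in replicate 3 it was 7 of 8, all but lab, against 44.2%. The strongest pooled ones stood at Dfd, at a distance of 171 bp, where the signal was 38.1 (rank 6965), and at Ubx, at 65 bp, where it was 37.1 (rank 7325). That of Ubx was the only one of the 6 pooled promoter summits matched in both replicates, at rank 19242 in replicate 1 and rank 9040 in replicate 3. The −log10 q-values of these 6 lay between 0.17 and 0.25, so none was below 0.05. The GAGA factor word GAGAGAG, read on both strands within 100 bp of the summit, stood at 3 of the 6, against 6.38% of 7128 pooled promoter summits. These were the summits of Dfd, Scr and Ubx, and each word lay at least 75 bp from its summit. In replicate 1 the Dfd summit and an Abd-B summit had the word, and those of Scr and Ubx did not. In replicate 3 the summits of Scr and Ubx had it and that of Dfd did not. This word was singled out after its matches had been seen.

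By position, most pooled summits in the windows were in introns. Of the 225 pooled summits, 126 were in introns, 48 were intergenic and 31 were at promoters, 25 of these at promoters of other genes alone. That made 13.8% at promoters in the Hox windows, against 23.8% of the whole pooled list. In the IDR list the share was 62.5% (5 of 8) in the Hox windows and 64.5% over the list. Replicate 1 had 137 intronic, 47 intergenic and 43 promoter summits in the windows, and replicate 3 had 101, 44 and 34. The promoter share in the windows was 16.9% in replicate 1, against 22.3% of that list, and 16.8% in replicate 3, against 27.2%. Intron and intergenic shares of the whole lists are not given here, so those counts describe the windows only.

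CTCF words within 100 bp were few in number. They stood at 1 of 8 IDR summits in the Hox windows, against 2.97% of the IDR list, and at 4 of 225 pooled summits, against 0.927% of the pooled list. Replicate 1 had 6 of 254, against 1.04%, and replicate 3 had 3 of 202, against 0.763%. Cut into consecutive windows of 201 bp without regard to peaks, the Hox windows held a word in 0.577% of pieces and arm 3R in 0.387%. The words are thus slightly denser in the Hox windows to begin with.

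All 4 pooled summits with a CTCF word were in the bithorax complex. They were in the iab8 intron, 46 bp from the summit, in the bxd intron, in the second Abd-B intron site, with a signal of 37.0 at rank 7390 and the word 52 bp away, and in coding sequence of Ubx, with 25.9 at rank 18486 and the word 94 bp away. In the Antennapedia windows the single match in any of the 4 lists was a replicate 1 summit of rank 22212 upstream of Scr. In replicate 1 a summit of rank 2998 in an Abd-B intron also had a word, 76 bp away, while the pooled summit there, 54.5 at rank 4073, had none within 100 bp. A match describes the letters only, and binding of CTCF at these sites was not measured here.

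Of the other motifs searched on both strands within 100 bp of the 225 pooled Hox summits, the nuclear receptor core AGGTCA stood at 8, or 3.56%, against 4.57% of the pooled list. GAGAGAG stood at 14, or 6.22%, against 3.76%, and the DNA replication-related element TATCGATA at 0, against 1.17%. The Polycomb recruiter Pho's GCCATTTT stood at 4, or 1.78%, against 1.74%, and the Su(Hw) insulator's TGCATAC at 7, or 3.11%, against 2.77%. Zelda's CAGGTAG stood at 3, or 1.33%, against 1.01%. AGGTCA is the core of sites for many nuclear receptors and does not identify Hr96.

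Genes that act with the Hox genes or control them were described in the same way. An IDR summit stood at a promoter of 0 of 8 Hox genes, of 1 of 5 other genes of the Antennapedia complex, namely bcd, and of 1 of 6 Hox cofactors, disco, with a signal of 77.7. It stood at 5 of 20 Polycomb group genes, which keep Hox genes silent (25%, exact 95% binomial interval 8.66 to 49.1%), among them ph-p with 718.4 at rank 48, ph-d with 304.0 but no counterpart within 100 bp in replicate 3, Sfmbt with 267.8 and jing with 210.8. It stood at 9 of 20 Trithorax group genes, which keep them active (45%, 23.1 to 68.5%), led by brm with 411.9, psq with 301.2, Trl with 276.2 and fs(1)h with 236.6 but no counterpart in replicate 1. Of 47 other homeobox genes 5 had one (10.6%, 3.55 to 23.1%), with 156.1 at Dll as the highest value, then cad, Six4 and mirr, the last with no counterpart in replicate 3. Of all protein-coding genes, 18.1% had an IDR summit at a promoter. In the pooled list the homeobox genes reached 61.7%, near the 62.5% of the Hox genes, against 39.5% of all protein-coding genes. The intervals cover counting error only, and all 3 begin below 36.9%, the upper end of the exact interval for the Hox genes. No test of a difference was run.

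**Figure D5:**
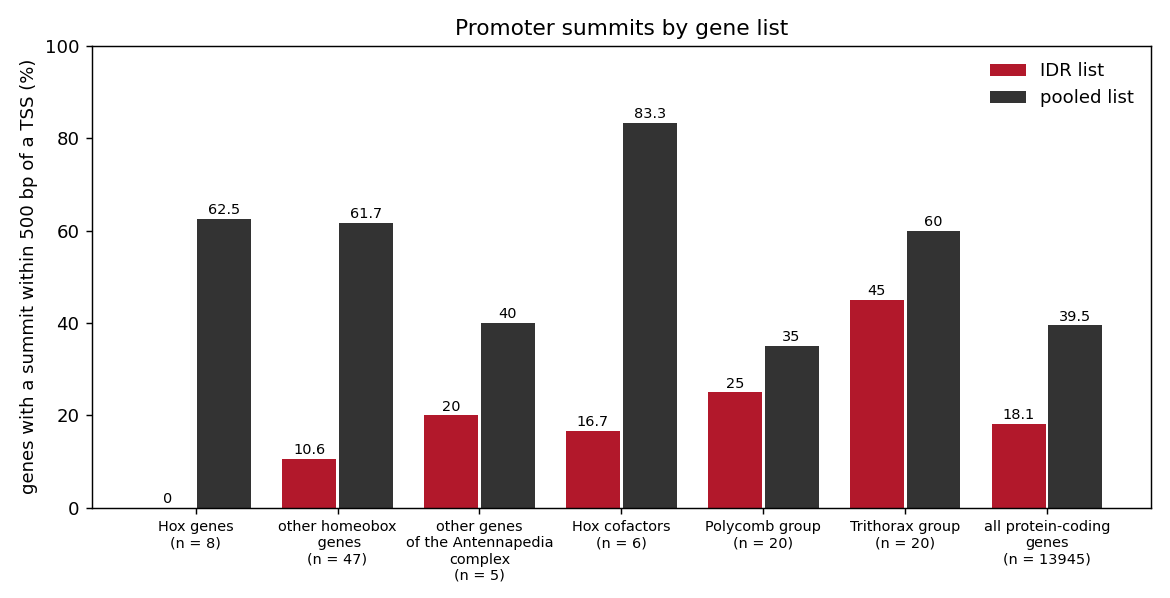
Percent of genes with a summit within 500 bp of a TSS (vertical axis) in the IDR list (red) and the pooled list (black), for the Hox genes, 5 other gene lists and all protein-coding genes (horizontal axis, number of genes below). The Hox genes show 0% in the IDR list and 62.5% in the pooled list, against 18.1% and 39.5% of all protein-coding genes.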

How the data were processed

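Peak lists of ChIP-seq for Hr96-eGFP in 2 libraries from whole adult females were used as deposited, on dm6. The deposited text lists give, as the origin of a replicate's regions, that library's alignments with a common control, as the origin of the pooled list both libraries, and as the origin of the IDR list all of these. The deposited signal (narrowPeak column 7) and −log10 q-value (column 9) are the authors' values and were identified by column order. The sources used here name no aligner, peak caller, IDR threshold or read depth, so counting limits cover genes or peaks only. The dm3 lists and the control were not used here.

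Summits were ranked by signal, matched between lists within 100 bp, and assigned by priority to promoter (within 500 bp of a TSS of any gene except transposable elements), exon parts, intron or intergenic, with Ensembl release 115. Chromosome lengths were checked against the RefSeq copy of the assembly. Word searches were tested on simulated data. Computation used matplotlib 3.10.9, SciPy 1.17.1, pandas 2.3.3, numpy 2.4.6 and Python 3.11.15. With 1 group, no test was run. The genes, windows, gene lists and motifs were chosen with earlier results of these data known; the q-value counts were added after the lists had been seen. All 8 Hox genes, every IDR summit in the windows, each gene's strongest pooled and replicate summits, and up to 4 members of each other list by IDR promoter signal were named; other genes were named only where a summit touched them. Of the Polycomb group names, calypso was not matched in the annotation.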

Additional observations from a re-analysis of the deposited data

How the results depend on the processing

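The count of Hox genes with an IDR summit at a promoter was also 0 with promoters of 1000 bp and with the 3607 strongest summits of either replicate alone. With 250 bp, or with the IDR peaks above the median signal, it could only be 0. Counts of summits in the windows, 8 in the IDR list, moved to 4 with windows of 10 kb, 13 with 50 kb, 1 inside the genes alone and 4 with the IDR peaks above the median signal. In the 3607 strongest summits of a single replicate the count was 4 without replicate 1 and 10 without replicate 3. Inside the genes alone there were 126 pooled, 137 replicate 1 and 106 replicate 3 summits, at 1.43, 1.52 and 1.26 times the density of arm 3R. Among the 10000 strongest of each list 55, 52 and 33 lay in the windows. Of these, 47, 42 and 29 had ranks 3608 to 10000, or 2.73%, 2.34% and 1.71% of the arm's summits of those ranks. The windows take 1.96% of the arm's length, and at stronger ranks the share was under that in every list.

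Pooled Hox summits with a CTCF word, 4 of 225 within 100 bp, numbered 2 within 50 bp and 10 within 200 bp. Over the whole pooled list the shares were 0.927%, 0.603% and 1.42%. With AGNNGGCGC there were 9 of 225, against 2.48% of the pooled list. With AGNNGGCG there were 26 of 225, against 10.1%. That form stood at 3 of the 8 IDR summits, against 10.7% of the IDR list. Pooled summits matched in both replicates, 49 within 100 bp, numbered 75 within 200 bp. The count of IDR summits in the windows rests more on replicate 1 than on replicate 3. No paired analysis was possible because there is a single group of 2 replicates and no comparison between conditions. Without read counts, depth cannot be given for any summit.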
